A study of Mus musculus with 4 samples.

Results

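The genes described here encode 4 families of drug- and metabolite-handling enzymes in mouse colon: glutathione S-transferases (GSTs), UDP-glucuronosyltransferases (UGTs), sulfotransferases (SULTs) and carboxylesterases (CESs). They were chosen by symbol, as every named gene starting with Gsta, Gstm, Gstp, Gstt, Gstk, Gsto, Gstz, Ugt1, Ugt2 or Sult, or with Ces and a digit, and each gene was represented by its brightest probe. Of 20832 genes named on the arrays, 70 belonged to the set: 21 GSTs, 12 UGTs, 20 SULTs and 17 CESs. A further 15 symbols of these families, among them Gsta1, Ugt1a1, Ugt1a7c and 4 pseudogenes, had no probe named here. Tests were run on 15557 genes, 46 of them members: 20 GSTs, 9 UGTs, 8 SULTs and 9 CESs. All 46 were well above background on all 4 arrays.

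Whole-colon RNA was hybridised to 4 one-colour Agilent arrays, 1 for each pool of 3 mice. The mice were 14 weeks old and on the C57BL/6J strain. All 4 pools came from animals given 1.75% dextran sulfate sodium (DSS) in the drinking water, an irritant that damages the colonic epithelium and causes acute colitis. The labels give 7 days of DSS in the sample descriptions and 3 days in the treatment protocol, so the length of exposure is not settled here, and no untreated colon was analysed here. The pools were 2 of wild-type (WT) mice and 2 of mice lacking STAP-2 (STAP-2-/-), an intracellular signalling adaptor protein. They are called WT 1, WT 2, STAP-2-/- 1 and STAP-2-/- 2 after the replicate numbers in the labels. According to the labels the pools are biological replicates, but nothing says how the mice were divided among them, so p-values measure only the spread between these samples. The labels do not say what a number shared by both genotypes stands for. All arrays were on 1 slide, with both arrays numbered 1 in its first positions and both arrays numbered 2 in its last, so number and slide position cannot be told apart.

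Conjugating enzymes carry out the second phase of detoxification: they attach glutathione, glucuronic acid or sulfate to a reactive or fat-soluble compound, which makes it water-soluble and easier to export. Carboxylesterases act beside them by splitting ester bonds in drugs and lipids, which exposes groups that can then be conjugated. Colonic epithelium expresses many of these enzymes and meets plant compounds, bile acids, microbial products and medicines from the gut lumen.

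Values are log2 of the processed spot signal minus the log2 75th percentile of the array, so a value of 0 is the 75th percentile. The percentile itself lay between 2134 and 2348 signal units on the 4 arrays, between 68.4% and 70.5% of probes were well above background, and no spot was saturated. Levels are compared between arrays for a probe and never between probes. The Stap2 probe read 2.92 and 2.98 in WT and -6.63 and -7.72 in STAP-2-/-, where it was not well above background and at least 720.9-fold lower, so the genotype labels matched all 4 arrays. With 2 arrays a genotype, even this deleted gene did not pass the test across all genes (limma adjusted p = 0.314). Its STAP-2-/- readings entered that test as measured, so their spread at background is part of the result. All 20 colonocyte markers, including Epcam, Car1 and Slc26a3, were well above background on every array. Of 10 hepatocyte markers, 6 (Ahsg, Serpina1a, Tat, Cps1, Apoh and F2) were well above background on every array, Alb on 3 arrays, and Fgb, Fga and Hpx on none.

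Members outside the tests were mostly at background. Of the 24, 19 were well above background on none of the arrays, including Ces3a, Ces3b, Ces4a, Ugt2a3, Ugt2b1, Sult2a1 and the hydroxysteroid sulfotransferases Sult2a2, Sult2a3, Sult2a4 and Sult2a7. Ces1b and Ces1c passed on STAP-2-/- 1 alone, and Ces5a and Sult2a6 on WT 2 alone. Sult1e1, the estrogen sulfotransferase, was above background on both arrays numbered 1 and on neither array numbered 2, with log2 values of -4.83 in WT 1, -8.46 in WT 2, -5.14 in STAP-2-/- 1 and -7.15 in STAP-2-/- 2. Its level on the arrays numbered 1 was at least 3.17-fold that on the arrays numbered 2, measured against the dimmest signal called above background. It was not tested, since it was detected on both arrays of neither genotype.

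**Figure D1:**
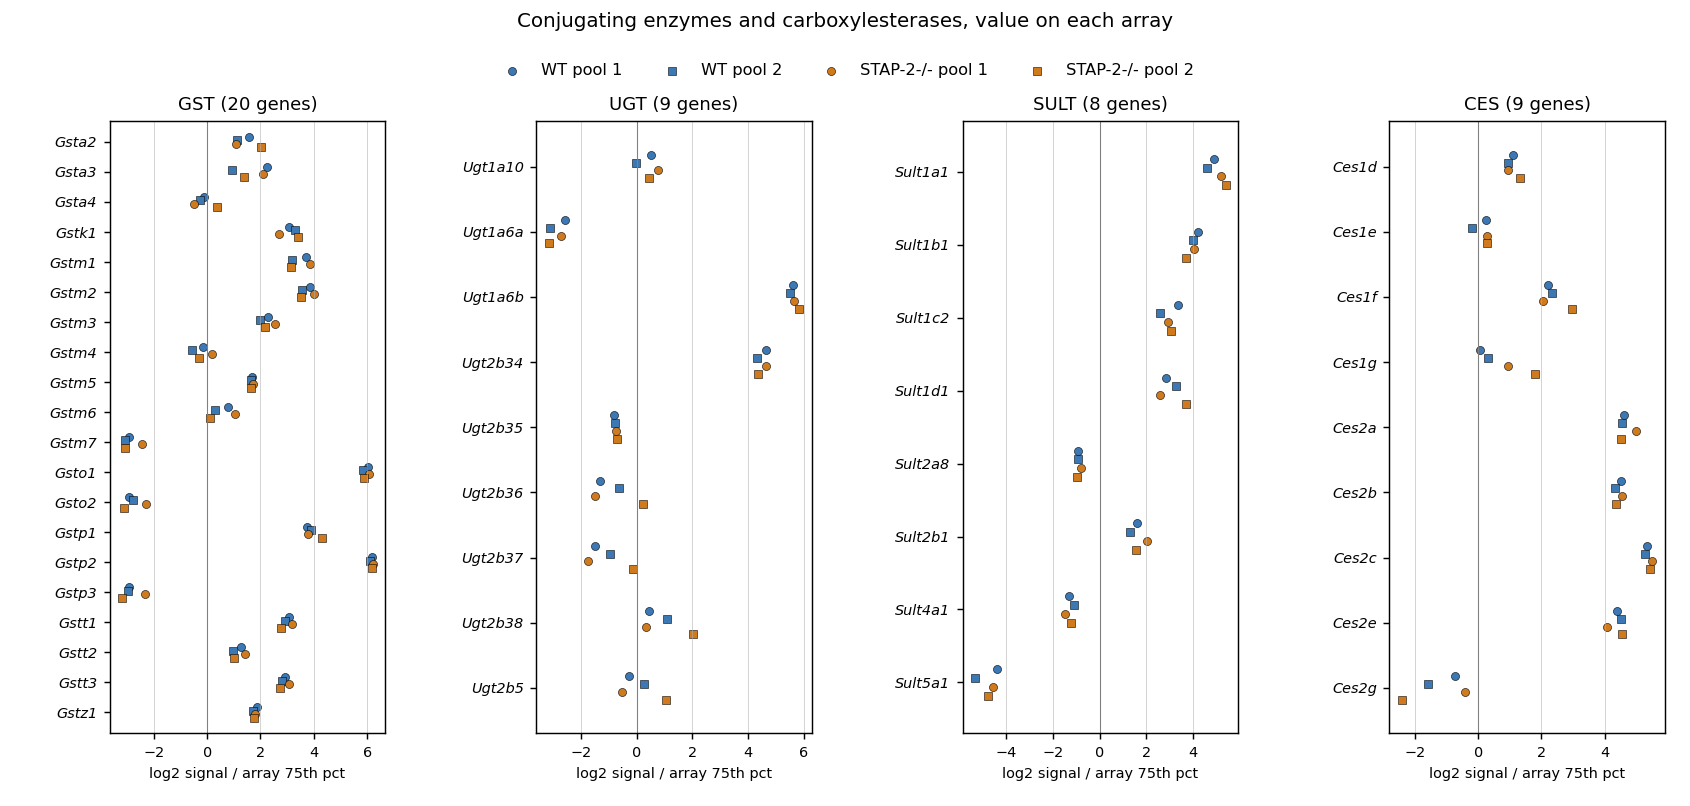
Log2 value relative to the 75th percentile of the array (horizontal axis) of the 46 tested members (vertical axis, ordered within GST, UGT, SULT and CES panels). Each symbol is 1 array, with circles for arrays numbered 1, squares for arrays numbered 2, blue for WT and orange for STAP-2-/-. In Gstm1 both squares lie to the left of both circles, and in Ugt2b36 both lie to the right.

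The first question was whether loss of STAP-2 altered these enzymes in DSS-treated colon. No member passed a limma test of STAP-2-/- against WT (0 of 46, background 0% of 15557 genes, lowest adjusted p of a member = 1.0). At an unadjusted p under 0.05 there were 2 members, Ces1g and Sult1a1, both higher in STAP-2-/-, against 2.09% of all tested genes (0.797% higher and 1.29% lower). In 6 members both STAP-2-/- arrays lay above both WT arrays (13%, background 11.5%): Ces1g, Sult1a1, Ces1e, Ces2c, Ugt1a6b and Ugt2b35. No member lay wholly below, against 13.4% of all tested genes. These counts use the brightest probe of each gene, and other probes of Ces2c and Ugt2b35 overlapped between genotypes. Quantile scaling gave 6 above and 1 below (11.9% and 13.4% of all tested genes), and median scaling 11 and 1 (12.7% and 12.3%). Leaving out 1 array loosens this condition for every gene. It gave 19 members above and 1 below without WT 1 (27.9% and 25.9% of all tested genes), and 7 and 6 without WT 2 (20.8% and 27.0%). Without STAP-2-/- 1 there were 18 and 14 (32.0% and 39.7%), and without STAP-2-/- 2 there were 27 and 12 (39.8% and 36.5%).

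Most differences were small and positive, and most of their signs depended on the arrays included. The median log2 difference, STAP-2-/- minus WT, was 0.12 over the 46 members and -0.0068 over all tested genes, and 38 members had a positive difference (82.6%, background 48.3%). The number positive was 40 without WT 1, 26 without WT 2, 25 without STAP-2-/- 1 and 31 without STAP-2-/- 2, and in 33 of the 46 the sign turned when at least 1 of the arrays was left out. By family the median difference was 0.28 for UGTs, 0.15 for CESs, 0.073 for SULTs and 0.070 for GSTs. The UGT median was 0.028 without STAP-2-/- 2 and 0.073 without WT 1, and without WT 2 the CES median was 0.053 and the SULT median 0.0084. The GST median turned to -0.016 without WT 2 and -0.063 without STAP-2-/- 1, and was 0.21 without WT 1 and 0.25 without STAP-2-/- 2. In a bulk tissue, fewer cells of a type and less RNA per cell cannot be told apart.

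Ces1g, a carboxylesterase that hydrolyses lipid esters, had the largest genotype difference among the members. Its log2 values were 0.04 in WT 1, 0.31 in WT 2, 0.94 in STAP-2-/- 1 and 1.80 in STAP-2-/- 2, a mean of 0.18 ± 0.19 in WT and 1.37 ± 0.61 in STAP-2-/- (SD, n = 2 pools each). Both STAP-2-/- pools were above both WT pools, with a wider gap between the STAP-2-/- pools than between the WT pools. The log2 difference was 1.20 (SE 0.35), or 2.29-fold higher in STAP-2-/-, and did not pass the test (limma adjusted p = 1.0). Leaving out STAP-2-/- 2 gave 0.76, and leaving out STAP-2-/- 1 gave 1.63.

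Sult1a1, which sulfates phenols, was the other member with a small unadjusted p. It read 4.89 and 4.62 in WT and 5.22 and 5.41 in STAP-2-/-, or 4.76 ± 0.19 against 5.31 ± 0.13 (SD, n = 2 pools each). The groups did not overlap, and the log2 difference of 0.56 (SE 0.17, 1.47-fold) stayed between 0.42 and 0.69 with any 1 array left out. It did not pass after adjustment (limma adjusted p = 1.0). A second Sult1a1 probe gave a log2 difference of 0.52. The promoter windows of both genes are shown because these 2 members stood furthest apart by genotype. They run from 250 bases before to 50 bases after the annotated start, in RefSeq on GRCm38.p6, with Ces1g at chr8:93337160-93337459 on the minus strand and Sult1a1 at chr7:126676369-126676668 on the minus strand. Neither window holds the letters of an antioxidant response element (TGACNNNGC, the motif bound by NRF2) or the core of a xenobiotic response element (GCGTG, the motif bound by the aryl hydrocarbon receptor) on either strand, so no letters are in capitals.
Ces1g: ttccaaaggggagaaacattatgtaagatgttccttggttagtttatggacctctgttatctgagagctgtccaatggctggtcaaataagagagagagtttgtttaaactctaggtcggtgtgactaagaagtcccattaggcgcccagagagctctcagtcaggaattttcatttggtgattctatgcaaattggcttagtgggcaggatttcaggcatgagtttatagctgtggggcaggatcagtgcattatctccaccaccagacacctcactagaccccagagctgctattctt
Sult1a1: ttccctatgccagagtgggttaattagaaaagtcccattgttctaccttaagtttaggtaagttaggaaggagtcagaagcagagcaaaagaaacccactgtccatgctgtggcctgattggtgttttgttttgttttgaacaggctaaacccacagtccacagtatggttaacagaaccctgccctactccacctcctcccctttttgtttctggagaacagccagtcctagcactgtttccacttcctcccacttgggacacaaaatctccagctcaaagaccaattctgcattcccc

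Among the other carboxylesterases, Ces1e and Ces2c also had no overlap between genotypes by the brightest probe. Ces1e read 0.23 and -0.19 in WT and 0.28 and 0.28 in STAP-2-/-, a log2 difference of 0.26 (SE 0.20) that was 0.053 without WT 2. Ces2c, one of the intestinal carboxylesterases of the Ces2 group, read 5.35 and 5.29 in WT and 5.51 and 5.44 in STAP-2-/-, a difference of 0.15 (SE 0.13). Its other probes overlapped between genotypes, with differences of 0.063 and 0.060. The median difference was 0.25 over 4 Ces1 genes and 0.042 over 5 Ces2 genes, in the other order without STAP-2-/- 2 (0.089 and 0.18), and no test compared the groups. Ces2a overlapped, at 4.6 and 4.54 in WT and 5.0 and 4.52 in STAP-2-/-, and its difference of 0.19 (SE 0.21) turned to -0.050 without STAP-2-/- 1. Values of Ces2b were 4.52 and 4.33 in WT and 4.56 and 4.37 in STAP-2-/-, with STAP-2-/- 1 next to WT 1 and STAP-2-/- 2 next to WT 2. The Ces2e probes disagreed in the sign of the genotype difference, -0.14 for the brightest and 0.078 for the other, so no direction is given for it.

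The UGTs had the largest family median, and it rested on genes whose STAP-2-/- pools were far apart. Ugt2b38, a glucuronosyltransferase of the steroid- and bile acid-conjugating 2b group, read 0.43 and 1.1 in WT and 0.33 and 2.01 in STAP-2-/-. Its genotype difference of 0.40 (SE 0.66) became 1.24 with STAP-2-/- 1 left out and -0.43 with STAP-2-/- 2 left out. Ugt2b36 read -1.31 and -0.65 in WT and -1.52 and 0.23 in STAP-2-/-, and its difference of 0.34 (SE 0.68) ranged in the same way from -0.54 to 1.21. In both genes the STAP-2-/- pools were the lowest and the highest of the 4 arrays. Ugt1a10, an intestinal member of the bilirubin- and phenol-conjugating 1a group, read 0.51 and -0.016 in WT and 0.75 and 0.42 in STAP-2-/-, a difference of 0.34 (SE 0.25) that was 0.082 without WT 2 and 0.60 without WT 1. Ugt1a6b, a phenol-conjugating enzyme, read 5.63 and 5.51 in WT and 5.66 and 5.83 in STAP-2-/-, with no overlap and a difference of 0.18 (SE 0.15) by its brightest probe and 0.64 by another. Ugt2b35 was nearly level, at -0.80 and -0.77 in WT and -0.76 and -0.71 in STAP-2-/-. A second Ugt2b35 probe overlapped, at -4.22 and -4.22 in WT and -4.30 and -4.02 in STAP-2-/-. None of these passed the limma test.

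No GST separated the genotypes with the percentile or quantile scaling. Median scaling left 3 GSTs wholly higher in STAP-2-/-, 2 of the mu class and 1 of the pi class, and none wholly lower. With the percentile scaling 17 of 20 had a positive difference, a number that was 9 without WT 2 and 7 without STAP-2-/- 1. The range over the family was -0.12 (Gstk1, the mitochondrial and peroxisomal kappa enzyme) to 0.29 (Gstm4, a mu-class enzyme). Gstm4 read -0.17 and -0.56 in WT and 0.17 and -0.32 in STAP-2-/-, so STAP-2-/- 2 lay between the WT pools, and its difference was 0.047 without STAP-2-/- 1. Gstm3 read 2.28 and 1.99 in WT and 2.56 and 2.18 in STAP-2-/-, a difference of 0.24 (SE 0.21) that was 0.049 without STAP-2-/- 1. Gstm7 read -2.94 and -3.08 in WT and -2.42 and -3.08 in STAP-2-/-, with STAP-2-/- 1 apart from the other 3. Its difference was 0.25 (SE 0.27) and -0.076 without STAP-2-/- 1, and that of Gstp1, a pi-class enzyme, was 0.23 (SE 0.23) and -0.033 without STAP-2-/- 2. The 7 mu-class genes were all positive, by 0.023 to 0.29, and all overlapped with the percentile scaling. However, 5 of the 7 were negative without STAP-2-/- 1 and 3 without WT 2. Gstp2 at 6.18 and 6.10 in WT and 6.2 and 6.17 in STAP-2-/-, and Gsto1, an omega-class enzyme that reduces dehydroascorbate, at 6.02 and 5.84 in WT and 6.06 and 5.88 in STAP-2-/-, were close on all 4 arrays.

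Beyond Sult1a1, the sulfotransferases overlapped between genotypes with the percentile scaling. Quantile and median scaling each gave 2 SULTs wholly higher in STAP-2-/-, 1 of the Sult1 group and 1 of the Sult2 group. Each also gave 1 wholly lower, of the Sult1 group. The values below are with the percentile scaling. Sult2b1, which sulfates cholesterol and other hydroxysteroids, read 1.60 and 1.30 in WT and 2.01 and 1.56 in STAP-2-/-, a difference of 0.34 (SE 0.23) that became 0.11 with STAP-2-/- 1 left out and 0.57 with STAP-2-/- 2 left out. Sult1b1, a thyroid hormone and phenol sulfotransferase, read 4.22 and 4.01 in WT and 4.03 and 3.71 in STAP-2-/-, a difference of -0.24 (SE 0.18) that ranged from -0.40 to -0.081 with STAP-2-/- 1 or STAP-2-/- 2 left out. Sult1c2 read 3.38 and 2.57 in WT and 2.93 and 3.07 in STAP-2-/-, with both STAP-2-/- pools inside the WT range. Sult4a1, best known from brain, had a difference of -0.14 (SE 0.17) whose sign turned when the probes of the gene were averaged.

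**Figure D2:**
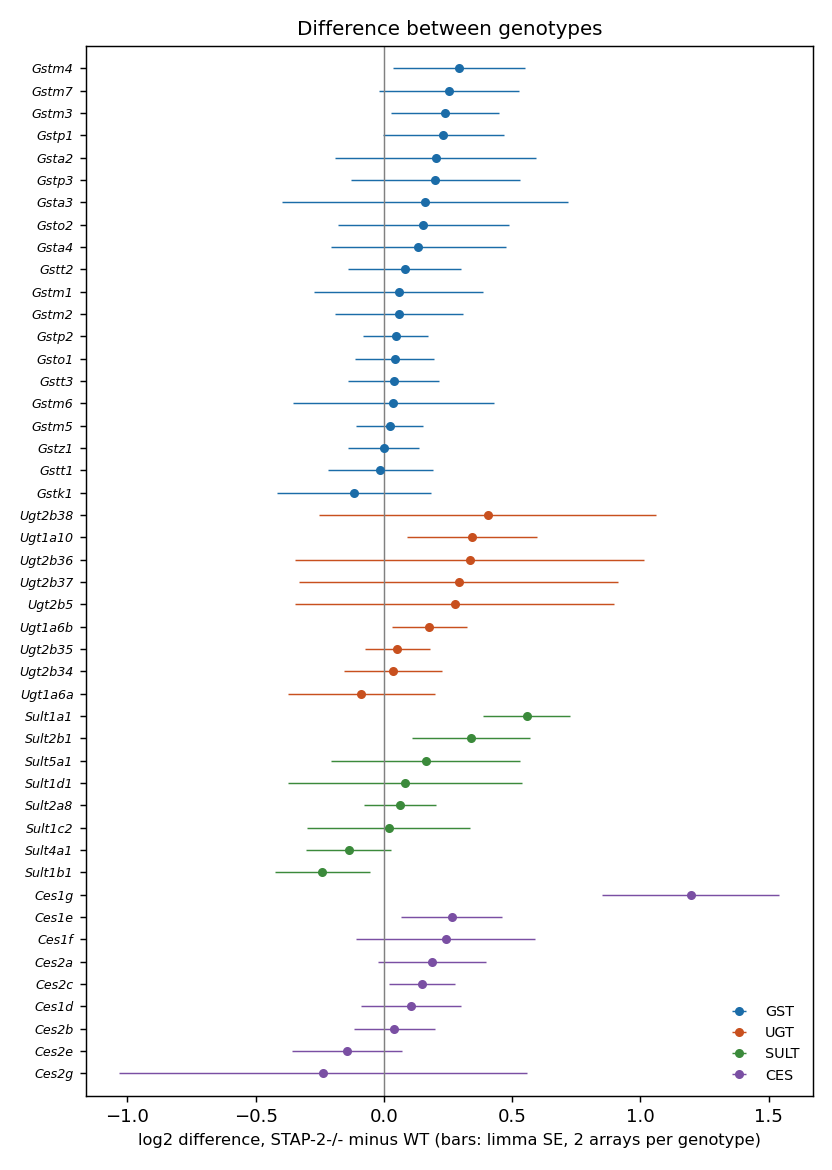
Log2 difference of STAP-2-/- minus WT (with limma standard errors as bars) for the 46 tested members, grouped by family; the zero line marks no difference. Ces1g at 1.20 and Sult1a1 at 0.56 lie furthest to the positive side, and the bars are widest for Ces2g (SE 0.79) and for Ugt2b5, Ugt2b36, Ugt2b37 and Ugt2b38 (SE 0.62 to 0.68).

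Markers of other cell types were read beside the genotype comparison. The summed level of 20 colonocyte markers, in multiples of the 75th percentile, was 1428 and 1302 in WT and 1327 and 1335 in STAP-2-/-, and 14 of the 20 had a negative difference (median -0.12). The 10 adipocyte markers summed to 113 and 73.6 in WT and 74.7 and 52.1 in STAP-2-/- (8 of 10 negative, median -0.61). The 7 tested small intestinal enterocyte markers summed to 3.64 and 3.87 in WT and 4.16 and 7.83 in STAP-2-/- (5 of 7 positive, median 0.20), and the 8 T cell markers to 2.66 and 2.93 in WT and 3.03 and 4.65 in STAP-2-/- (8 of 8 positive, median 0.58). Smooth muscle and fibroblast markers were each negative in 8 of 8, with medians of -0.15 and -0.32. Colonocyte markers had a negative median where the members had a positive one, and the colonocyte sums overlapped between genotypes. The part of any of these markers in the members' differences was not tested.

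The second comparison set the arrays numbered 2 against the arrays numbered 1 across both genotypes, with each genotype giving its own difference from its own pair of arrays. Again no member passed the limma test (0 of 46, background 0%; lowest adjusted p of a member = 0.113, for Gsta3). The spread by number was nevertheless wider than by genotype for members and for the arrays as a whole. The median absolute log2 difference of members was 0.34 by number and 0.15 by genotype, and over all tested genes 0.22 and 0.12. At an unadjusted p under 0.05 there were 14 members (30.4%), against 25.3% of all tested genes.

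In 25 members both arrays numbered 2 lay below both arrays numbered 1 (54.3%, background 36.1%), and in 10 both lay above (21.7%, background 26.4%). This split depended on the scaling of the arrays. Quantile scaling gave 17 below and 12 above (29.5% and 32.0% of all tested genes), and median scaling 15 and 11 (25.5% and 36.8%). Over all tested genes without overlap, 42.2% were above with the 75th percentile, 52.1% with quantile scaling and 59.0% with median scaling. With WT 2 left out, 18 members were above and 26 below (36.6% and 46.3% of all tested genes). Within the genotypes, 26 members were lower in the second pool of both (56.5%, background 44.1%) and 12 were higher in both (26.1%, background 33.1%). The difference between pools was larger in STAP-2-/- than in WT for 36 members (78.3%), against 69.0% of all tested genes. Median log2 differences by number were -0.18 over members, -0.31 over GSTs, -0.18 over SULTs, -0.063 over CESs and 0.042 over UGTs. Under quantile and median scaling the CES median was 0.026 and 0.030, so the CESs had no settled direction. The UGT median was 0.13 and 0.14 and the SULT median -0.13 and -0.085 under the same scalings.

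**Figure D3:**
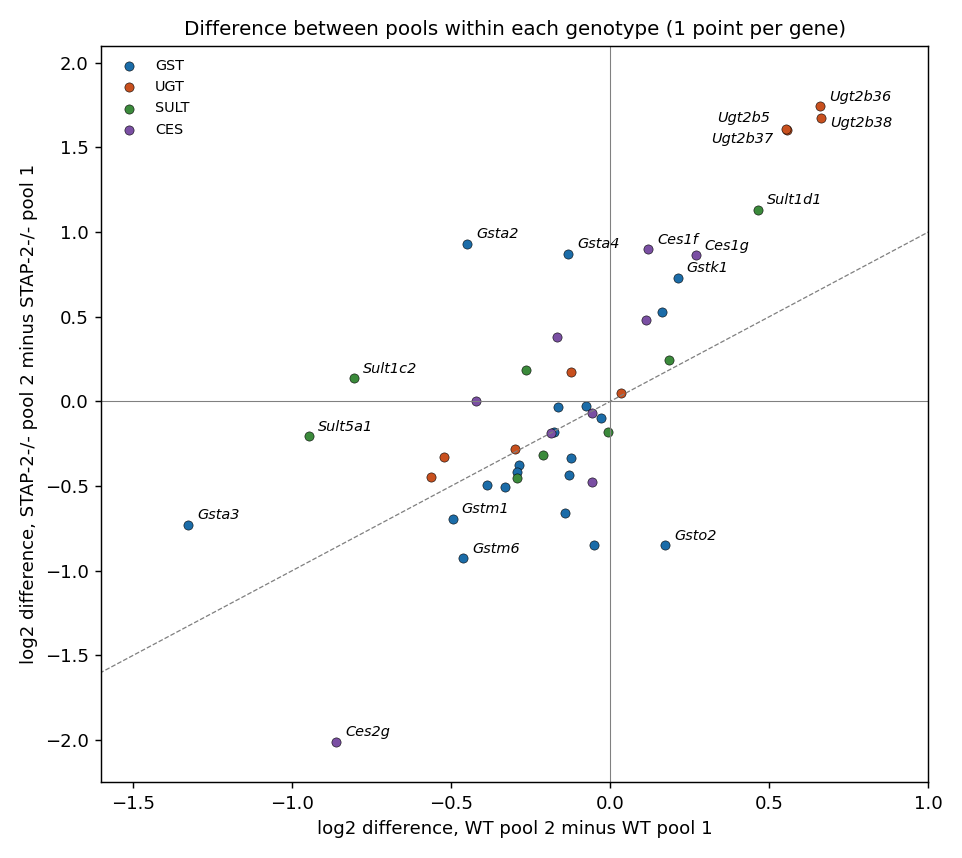
Log2 difference of pool 2 minus pool 1 in WT (horizontal axis) and in STAP-2-/- (vertical axis), with 1 point for each of the 46 tested members coloured by family; the dashed line marks equal differences. The 4 genes Ugt2b5, Ugt2b36, Ugt2b37 and Ugt2b38 lie at the upper right, and Gsta3 and Ces2g at the lower left. The axes share no array, and across the 46 genes, which are not independent replicates, r was 0.70, beside 0.60 across all tested genes.

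The widest positive differences by number were in 4 neighbouring glucuronosyltransferases, Ugt2b36, Ugt2b5, Ugt2b37 and Ugt2b38, a group singled out after its values were seen. In Ugt2b36 the log2 values were -1.31 in WT 1, -0.65 in WT 2, -1.52 in STAP-2-/- 1 and 0.23 in STAP-2-/- 2, a difference of 1.20 (SE 0.32), or 2.30-fold (limma adjusted p = 0.143). Ugt2b38, at 0.43, 1.1, 0.33 and 2.01 in the same order, had a difference of 1.17 (SE 0.32, limma adjusted p = 0.147). Ugt2b5 read -0.29, 0.26, -0.54 and 1.06, and Ugt2b37 read -1.52, -0.96, -1.75 and -0.15. In each of the 4 genes both arrays numbered 2 were above both arrays numbered 1. The share over all tested genes was 26.4%, which is no yardstick for genes singled out by their wide positive differences. STAP-2-/- 2 was the highest array and STAP-2-/- 1 the lowest in all 4. The pool difference was 0.55 to 0.66 in WT and 1.60 to 1.75 in STAP-2-/-. Without STAP-2-/- 2 the overall differences were 0.67 to 0.76, and without WT 2 they were 1.48 to 1.64. These paralogs are close in sequence and their probes may share target RNA, so they are uncertain as 4 separate measurements.

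Genes beside these on the chromosome had other values. In RefSeq order on chromosome 5 the genes run Ugt2b34, Ugt2b1, Ugt2b35, Ugt2b36, Ugt2b5, Ugt2b37, Ugt2a3, Ugt2b38, Ugt2a1, Ugt2a2, Sult1b1, Sult1d1 and Sult1e1. Ugt2b34 lay lower on both arrays numbered 2, at 4.63 and 4.33 in WT and 4.65 and 4.37 in STAP-2-/-, a difference of -0.29 (SE 0.10, limma adjusted p = 0.182). Ugt2b35 was level, Ugt2b1, Ugt2a1 and Ugt2a3 were at background, and Sult1b1 was lower by number with a difference of -0.26 (SE 0.15). Sult1d1, a sulfotransferase for phenols and catecholamines, was higher, at 2.83 and 3.29 in WT and 2.58 and 3.71 in STAP-2-/- with a difference of 0.80 (SE 0.19, limma adjusted p = 0.132). A second Sult1d1 probe gave 0.29.

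The 4 Ugt2b promoter windows were compared with those of Ugt2b34 and Ugt2b35. Ugt2b5, Ugt2b37 and Ugt2b38 were identical at 82.7% to 91.3% of aligned window bases pair by pair, and Ugt2b36 matched these 3 at 67.3% to 69.0%. Windows of Ugt2b34 and Ugt2b35 matched the other windows and each other at 58.0% to 67.7%. The longest run of letters common to all 4 was 22 bases, gataaaaggtcaagcagtgaca. It was chosen as common to these 4 windows, so its presence in them was fixed in advance. Among 32851 promoter windows in the RefSeq table it occurred in no others, and so in neither Ugt2b34 nor Ugt2b35. It began 31 bases before the annotated start in Ugt2b36 and Ugt2b38, 28 before in Ugt2b5 and 45 before in Ugt2b37. The windows of Ugt2b36 (chr5:87092506-87092805, minus strand, GRCm38.p6) and Ugt2b38 (chr5:87424154-87424453, minus strand) are shown as the 2 members with the widest positive difference by number, with that run in capitals.
Ugt2b36: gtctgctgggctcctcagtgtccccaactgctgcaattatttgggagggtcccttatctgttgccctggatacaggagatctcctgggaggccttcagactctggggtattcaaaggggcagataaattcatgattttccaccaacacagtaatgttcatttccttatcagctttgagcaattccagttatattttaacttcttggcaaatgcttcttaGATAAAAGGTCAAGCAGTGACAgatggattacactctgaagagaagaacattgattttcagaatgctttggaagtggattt
Ugt2b38: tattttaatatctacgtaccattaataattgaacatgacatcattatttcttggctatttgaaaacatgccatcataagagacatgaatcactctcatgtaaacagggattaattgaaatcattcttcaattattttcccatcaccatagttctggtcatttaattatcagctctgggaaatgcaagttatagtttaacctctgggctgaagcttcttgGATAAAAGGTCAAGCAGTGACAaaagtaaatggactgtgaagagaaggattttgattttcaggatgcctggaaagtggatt
A shared run is a description of the letters and names no factor, and any link between this run and the measured values was not tested.

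**Figure D4:**
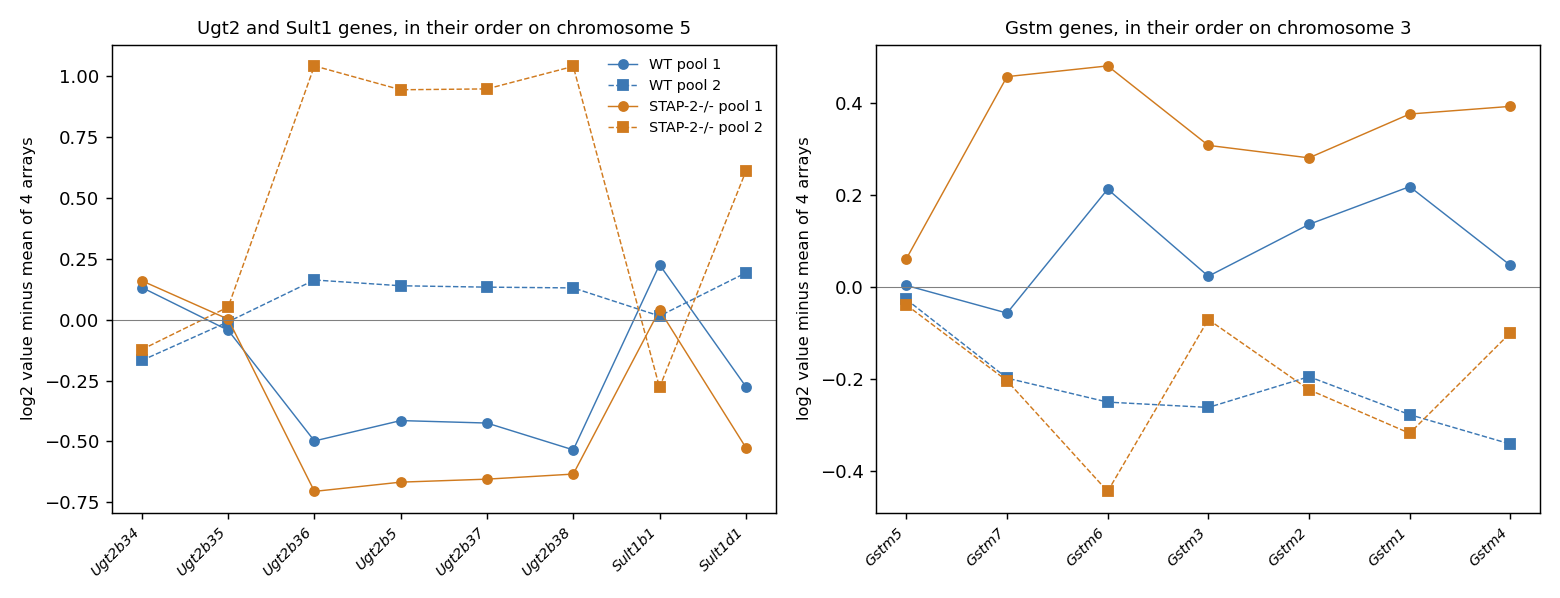
Log2 value of each array minus the mean of the 4 arrays (vertical axis) for tested Ugt2 and Sult1 genes in their order on chromosome 5 (left) and Gstm genes in their order on chromosome 3 (right); colours mark genotype and symbols the number of the array. Squares lie above circles from Ugt2b36 to Ugt2b38 and below them at Ugt2b34 and across the Gstm genes, with Gstm5 near 0.

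On the other side were the mu-class glutathione transferases, whose genes stand together on chromosome 3 in the order Gstm5, Gstm7, Gstm6, Gstm3, Gstm2, Gstm1 and Gstm4. All 7 were lower in the second pool of both genotypes (background 44.1%), with no overlap (7 of 7, background 36.1%). Their median log2 difference by number was -0.42. Under median scaling, however, Gstm5 turned positive and 5 of 7 stayed without overlap (background 25.5%). Gstm1 read 3.69 in WT 1, 3.20 in WT 2, 3.85 in STAP-2-/- 1 and 3.16 in STAP-2-/- 2, a difference of -0.59 (SE 0.11, limma adjusted p = 0.114). Gstm6 read 0.77, 0.31, 1.04 and 0.12 in the same order, with the widest mu-class difference at -0.69 (SE 0.15, limma adjusted p = 0.125). In Gstm2 the values were 3.87, 3.54, 4.01 and 3.51, a difference of -0.42 (SE 0.11). STAP-2-/- 1 was the highest array in all of these. Gstm5 was flat, at 1.68, 1.65, 1.74 and 1.64. Several mu-class genes are near-identical in parts, and probes may take up RNA of a neighbour; where a Gstm gene had several probes above background, the signs were the same.

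Other glutathione transferases went both ways, also within a class. Gsta3, an alpha-class enzyme, had the smallest adjusted p of all members: 2.25 in WT 1, 0.92 in WT 2, 2.11 in STAP-2-/- 1 and 1.38 in STAP-2-/- 2, a log2 difference of -1.03 (SE 0.19), or 2.04-fold lower on the arrays numbered 2 (limma adjusted p = 0.113). Its other probe also gave -1.03. Gsta2 went opposite ways in the genotypes, at 1.56 and 1.11 in WT and 1.07 and 2.00 in STAP-2-/-, and so did Gsta4, which clears the lipid peroxidation product hydroxynonenal, at -0.13 and -0.26 in WT and -0.50 and 0.37 in STAP-2-/-. The 3 theta-class genes were lower on the arrays numbered 2 with no overlap (background 36.1%). Gstt2 had a difference of -0.36 (SE 0.11). Gstt1 read 3.06 and 2.93 in WT and 3.20 and 2.77 in STAP-2-/-. Gstt3 read 2.93 and 2.81 in WT and 3.08 and 2.74 in STAP-2-/-. Gstk1 was higher on the arrays numbered 2, at 3.07 and 3.28 in WT and 2.69 and 3.42 in STAP-2-/-, a difference of 0.47 (SE 0.17). Gstp1 was also higher, at 3.73 and 3.89 in WT and 3.78 and 4.31 in STAP-2-/-, a difference of 0.35. A second Gstp1 probe gave 0.11, and its arrays overlapped by number. Gstp3, of the same class, was lower, at -2.93 and -2.98 in WT and -2.33 and -3.18 in STAP-2-/-. The 2 probes of Gstp2 disagreed in sign. Gstz1, an isomerase of tyrosine breakdown, stayed close, at 1.87 and 1.70 in WT and 1.80 and 1.77 in STAP-2-/-.

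Ces2g showed the widest difference by number among carboxylesterases and among all members. It read -0.75 in WT 1, -1.61 in WT 2, -0.41 in STAP-2-/- 1 and -2.42 in STAP-2-/- 2, a log2 difference of -1.44 (SE 0.31), or 2.71-fold lower on the arrays numbered 2 (limma adjusted p = 0.125). Both genotypes had a negative pool difference, -0.86 in WT and -2.01 in STAP-2-/-. The windows of Ces2g (chr8:104961468-104961767, plus strand, GRCm38.p6) and Gsta3 (chr1:21240335-21240634, plus strand) are shown as the 2 members with the widest negative difference, from RefSeq. The Gsta3 window holds 1 match to TGACNNNGC, in capitals, and neither holds GCGTG.
Ces2g: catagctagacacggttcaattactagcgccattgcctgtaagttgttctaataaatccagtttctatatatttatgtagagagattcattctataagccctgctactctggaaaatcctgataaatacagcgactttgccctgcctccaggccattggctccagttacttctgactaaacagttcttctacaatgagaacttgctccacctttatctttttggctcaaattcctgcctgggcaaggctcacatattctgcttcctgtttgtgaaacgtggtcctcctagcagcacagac
Gsta3: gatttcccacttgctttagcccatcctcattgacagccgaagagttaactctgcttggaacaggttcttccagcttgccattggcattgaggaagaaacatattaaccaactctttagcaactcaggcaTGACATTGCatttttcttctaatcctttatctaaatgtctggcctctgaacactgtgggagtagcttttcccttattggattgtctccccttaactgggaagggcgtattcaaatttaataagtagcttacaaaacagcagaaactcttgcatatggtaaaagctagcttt
TGACNNNGC was found, on either strand, in 12.4% of all 32851 windows and in 3 of 50 member windows (6.00%), those of Gsta3, Gstm5 and Gstm7. GCGTG was found in 32.4% of all windows and in 10 of 50 member windows (20.0%). The 50 windows belong to the 39 tested members found in the table, some with several starts, and a match is not a measured binding site.

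The remaining carboxylesterases had smaller differences by number. Ces1f read 2.20 and 2.32 in WT and 2.06 and 2.95 in STAP-2-/-, a log2 difference by number of 0.51 (SE 0.24) that was 0.19 without STAP-2-/- 2. Ces1d, a triacylglycerol hydrolase, read 1.1 and 0.93 in WT and 0.93 and 1.31 in STAP-2-/-, with the genotypes going opposite ways. Ces2b was lower by nearly the same amount in both, -0.19 in each genotype, and Ces2e was higher, at 4.40 and 4.52 in WT and 4.08 and 4.56 in STAP-2-/-. The difference of Ces1g by number, 0.57 (SE 0.60), turned to -0.18 without STAP-2-/- 2, and that of Ces1e, -0.21 (SE 0.19), to 0.029 without WT 2. Those of Gsta2, 0.24 (SE 0.36), turned to -0.21 without STAP-2-/- 2 and to -0.0025 without STAP-2-/- 1.

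In the UGT1 group, Ugt1a6a, which conjugates small phenols, read -2.57 and -3.13 in WT and -2.71 and -3.16 in STAP-2-/-, a difference by number of -0.50 (SE 0.11, limma adjusted p = 0.125). Ugt1a10 was lower on both arrays numbered 2 as well, and Ugt1a6b overlapped. Genes of the 1a group have their own first exon and share the later ones, so a probe in the shared exons would read several of them. Of the other sulfotransferases, Sult5a1 was lower at -4.38 and -5.33 in WT and -4.59 and -4.80 in STAP-2-/-, and Sult2b1 was lower in both genotypes with a difference of -0.37 (SE 0.19). Sult4a1 had a difference of 0.21 (SE 0.12), whose sign turned when its probes were averaged. Sult2a8 was level, at -0.94 and -0.94 in WT and -0.79 and -0.97 in STAP-2-/-.

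Markers of other cell types also differed between arrays by number. All 10 adipocyte markers were lower in the second pool of both genotypes (background 44.1%, median log2 difference -0.68). T cell markers were higher in both for 5 of 8 (background 33.1%, median 0.90). The small intestinal enterocyte markers had a median of 0.37, the colonocyte markers -0.14 and the goblet cell markers -0.25. The 5 tested neutrophil markers had a median of 1.56, with 4 positive and 1 negative. Their sum went the other way, at 58.5 and 52.8 in WT and 57.1 and 44.4 in STAP-2-/-. Ugt2b5, Ugt2b36, Ugt2b37 and Ugt2b38 were highest on STAP-2-/- 2, as were the enterocyte, T cell, macrophage, and B and plasma cell sums. The colonocyte, goblet cell, adipocyte, neutrophil and smooth muscle sums were highest on WT 1. Of the tested enterocyte markers, Rbp2 and Mttp were lower on STAP-2-/- 2 than on STAP-2-/- 1, and the others higher. Fabp6 among them read 0.74 on STAP-2-/- 1 and 2.06 on STAP-2-/- 2. The part of these cell types in the members' differences was not tested, nor was that of the hepatocyte markers, which summed to 1.40 and 2.00 in WT and 1.06 and 1.37 in STAP-2-/-.

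Genes that work with these enzymes were taken from 7 lists, and none of their members passed either limma test. The 14 cofactor supply genes had a median log2 difference of 0.045 by genotype and 0.090 by number. Ugdh, which makes UDP-glucuronic acid for the UGTs, read 4.86 and 4.70 in WT and 5.03 and 5.25 in STAP-2-/-. Slc26a2, a sulfate transporter, read 2.09 and 1.40 in WT and 2.51 and 1.38 in STAP-2-/-, a difference by number of -0.91 (SE 0.17, limma adjusted p = 0.114). Among 16 other conjugating and reducing enzymes (medians 0.045 and -0.22), the carbonyl reductase gene Cbr3 read 4.17 and 3.21 in WT and 4.12 and 3.42 in STAP-2-/-, a difference by number of -0.83 (SE 0.12, limma adjusted p = 0.0938). Ugt8a, which transfers galactose to ceramide, read -5.57 and -4.07 in WT and -5.63 and -3.76 in STAP-2-/-, a difference of 1.68 (SE 0.14, limma adjusted p = 0.0873), the smallest adjusted p by number, which 175 tested genes share.

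Target genes of the 2 sensors whose motifs were searched went both ways. By genotype the 13 tested targets of NRF2 ran from -0.43 to 0.26 (7 positive, median 0.0093), and the 4 tested targets of the aryl hydrocarbon receptor from -0.16 to 0.34 (3 positive, median 0.15). By number the medians were 0.065 and 0.041. Nqo1, a quinone reductase on both lists, read 0.27 and 0.23 in WT and 0.082 and 0.94 in STAP-2-/-, with STAP-2-/- 2 apart from the other 3. The 21 transcription factors had medians of 0.021 and -0.13; Ppara, a fatty acid-sensing receptor, read 1.41 and 0.94 in WT and 1.62 and 1.69 in STAP-2-/-. Over 14 transporters the medians were -0.032 and 0.21, and Slc51a, a subunit of the basolateral bile acid exporter, read 0.81 and 1.83 in WT and 1.07 and 2.90 in STAP-2-/-, a difference by number of 1.43 (SE 0.39, limma adjusted p = 0.146). The 4 enzymes that remove conjugates had medians of -0.0074 and 0.25. Gusb, the lysosomal glucuronidase, read 0.78 and 1.11 in WT and 0.69 and 0.97 in STAP-2-/-, higher on both arrays numbered 2.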

How the data were processed

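Expression was measured in 4 whole-colon RNA pools on 1-colour Agilent arrays. The deposited scanner files give, per the file headers, a processed signal intensity for each spot after background subtraction, made by the authors with Agilent Feature Extraction 10.7.1.1 per the submitters' processing notes. The authors' deposited value table is a ratio, the processed signal over 1 constant per array (within 1% for 100% of probes compared), with column medians of 0.085 to 0.091. It was used as an alternative.

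Control spots were left out, spots marked as outliers (129 to 190 per array) were treated as missing, and repeat spots were averaged by probe. RefSeq named 27427 of 39429 probes through unversioned accessions (GRCm38.p6 table). A gene was tested if both arrays of a genotype had its brightest probe well above background. Log2 values were compared with limma 3.58.1 (lmFit, eBayes) in R 4.3.3, by genotype and separately by replicate number, with p-values adjusted by Benjamini-Hochberg over all 15557 genes at a threshold of 0.05. The fit was tested on simulated data. The number of arrays limits the precision. All adjusted p-values come from limma.

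The alternatives were quantile and median scaling, normexp background correction, the deposited value table, other filters and probe rules, kept flagged spots, a trended robust fit, a replicate block and each array left out. Normexp was run on the median spot signal, a choice made after seeing the files. Named genes were the members with the 4 smallest unadjusted p-values of each family and comparison, a list of known members, and the 2 smallest of each pathway list. The members and lists were chosen with earlier results of these data known.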

Additional observations from a re-analysis of the deposited data

Results flagged for a closer look

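In 5 members the pool 2 minus pool 1 difference had opposite signs in WT and STAP-2-/-, by at least 1.1-fold each way. The share of all tested genes at this limit is not given here, so the count is not read as particular to the members. With no such limit, 26.1% of members were higher in both genotypes and 56.5% lower in both. Over all tested genes these shares were 33.1% and 44.1%. With 1 array for each genotype and number, the difference was not tested. In Gsta2 it was -0.45 in WT and 0.93 in STAP-2-/-, a gap of 1.38 on the log2 scale. Gsto2, an omega-class glutathione transferase, went the other way, 0.17 in WT and -0.85 in STAP-2-/-, a gap of -1.02. In Sult1c2 the values were -0.81 and 0.14, a gap of 0.94. Ces1d had -0.17 and 0.38, a gap of 0.55, and Sult1a1 had -0.26 and 0.18, a gap of 0.45. The 4 Sult1a1 values still kept the genotypes apart.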

How the results depend on the processing

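No member was called under any alternative in either comparison. Normexp background correction gave 1 called gene by genotype, and leaving out WT 1 gave 1 by number, neither a member. The count of members without overlap by genotype was 1 lower under quantile scaling (13.4% of all tested genes). It was 11 higher and 1 lower under median scaling (12.7% and 12.3%). With no filter on dim probes 2 of 70 were lower (12.1% of 20832 genes). By number, 15 of 46 were lower under median scaling (25.5% of all tested genes). With no filter, where dim members enter, 45 of 70 were lower by number (42.9% of 20832 genes). Median scaling gave a GST median by number of -0.21. Without the filter the UGT and SULT medians were 0.12 and -0.14 by genotype and -0.13 and -0.35 by number, and the CES median by number was -0.21. With the probes of a gene averaged, Sult4a1 turned to 0.0072 by genotype and -0.10 by number. The cause of these shifts was not tested beyond the added dim probes.

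With each array left out in turn, members without overlap by genotype numbered 7 to 27 higher and 1 to 14 lower. The shares of all tested genes were 20.8% to 39.8% and 25.9% to 39.7%. By number 10 to 18 members were higher (32.3% to 37.4% of all tested genes). Genotype medians ranged from 0.028 to 0.26 for UGTs, 0.0084 to 0.24 for SULTs, 0.053 to 0.19 for CESs and -0.063 to 0.25 for GSTs. Medians by number ranged from 0.012 to 0.19 for UGTs and -0.39 to -0.15 for GSTs. In 33 of 46 members by genotype and 7 of 46 by number the sign turned in at least 1 of these fits. Among the genes whose differences are printed, genotype differences that changed sign included those of Ces2a (-0.050 to 0.43), Gstm7 (-0.076 to 0.58) and Gstp1 (-0.033 to 0.50). Others were those of Ugt2b38 (-0.43 to 1.24), Ugt2b36 (-0.54 to 1.21) and Gstk1 (-0.48 to 0.25). The negative difference of Ces2e also turned positive without STAP-2-/- 1. By number the differences that changed sign ranged from -0.45 to 0.029 (Ces1e), -0.21 to 0.69 (Gsta2) and -0.18 to 1.31 (Ces1g).

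The labels give no pairing of equal numbers. With the replicate number as a block, 0 members were called by genotype, 3 against 2 had an unadjusted p under 0.05, and 1040 against 325 genes did. Deviations of equally numbered arrays correlated at 0.63 over 15138 genes. With 2 arrays per genotype, signal over background and pool number limit every difference.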
